A study of Mus musculus with 48 samples.

Results

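The 35 genes described here encode enzymes and carriers of fatty acid oxidation in the mouse kidney. They were chosen by name, 18 for mitochondrial enzymes, 9 for peroxisomal proteins, 4 for enzymes known from both compartments and 4 for enzymes that activate or take up fatty acids. All 35 were found among the 12423 genes listed in both assays. Kidneys came from male C57BL/6JRj mice aged 11 to 12 weeks, none of them carrying a mutation or a treatment, that had been held in 12 h of light and 12 h of dark. Zeitgeber time (ZT) counts hours from lights-on. There were 24 pools, each of 2 mice, with 2 replicate pools at each of 12 timepoints from ZT0 to ZT22, and each pool gave 1 RNA-seq library (transcript abundance) and 1 RPF-seq library (ribosome footprints, that is, mRNA pieces shielded by ribosomes). Values are RPKM, the reads on a coding sequence scaled to its length and to the library's size. The ratio of RPF to RNA of the same pool is the translation efficiency (TE).

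Fatty acids are first joined to coenzyme A by acyl-CoA synthetases. In mitochondria, the acyl group arrives as a carnitine ester and is shortened in repeated rounds of dehydrogenation, hydration, a further dehydrogenation and thiolysis, and electron transfer flavoprotein carries electrons from the first step to the respiratory chain. Peroxisomes carry out related steps on very long, branched or unsaturated chains with their own set of enzymes, begin with an oxidase rather than a dehydrogenase, and pass shortened products on as carnitine esters. The proximal tubule of the kidney is rich in both organelles and relies largely on fatty acids for its energy.

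The signal that sends most enzymes into the peroxisomal matrix, peroxisomal targeting signal type 1 (PTS1), is a short tail at the very end of the protein, whereas most mitochondrial matrix enzymes carry their signal at the start. The lists were not made from these sequences. The last 3 codons before the stop fitted a PTS1 pattern (a small residue, a basic residue, then leucine or methionine) in 5 of the 9 peroxisomal genes, in 3 of the 4 genes of both compartments, and in 0 of the 18 mitochondrial and 0 of the 4 activation genes. Among 21822 protein-coding genes it fitted 112 (0.513%). Below are 5′ to 3′ the last 9 codons and the stop codon (GENCODE vM21 transcripts, build GRCm38), with the last 3 codons in capitals. Decr2 and Decr1 are shown because they encode the peroxisomal and the mitochondrial 2,4-dienoyl-CoA reductase, and Ehhadh and Hadha because they encode the multifunctional enzymes of the respective compartments.
Decr2 (chr17:26082876-26082905, minus strand): gagtttgaatccttctctGCTAAGCTGtag
Decr1 (chr4:15919035-15919064, minus strand): gggctcatcaggaagacaAAAGGCTCCtaa
Ehhadh (chr16:21762084-21762113, minus strand): ttggcaggaccccatagcAGCAAACTGtga
Hadha (chr5:30119815-30119844, minus strand): aacaactctagcaagaagTTCTACCAGtga
Decr2 and Ehhadh fitted the pattern, and Decr1 and Hadha did not.

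The other genes with a fitting end included the peroxisomal Crot and Scp2 and all 3 such genes of the mixed list, Acad11, Crat and Ech1. They are shown, with the ends of 3 of the genes that came close, to let the codons be compared.
Crot (chr5:8966852-8966881, minus strand): atacagctgatgaacaccGCTCATCTTtag
Scp2 (chr4:108044750-108044779, minus strand): cagcttcagccgggcaaaGCTAAGCTGtga
Acad11 (chr9:104126667-104126696, plus strand): caagccagacggttgacaGCCAGGATGtga
Crat (chr2:30402578-30402607, minus strand): ctccagaaccaccccaggGCCAAGCTCtga
Ech1 (chr7:28832079-28832108, plus strand): acaaaaagcatcaccttcTCCAAGCTCtga
Acox3 (chr5:35612105-35612134, plus strand): gtagccgacaggctaaagTCCCAGCTGtag
Eci2 (chr13:34977911-34977940, minus strand): agcttcgtctccagaaaaCCAAAGCTGtga
Slc27a2 (chr2:126587907-126587936, plus strand): gccataattgataaaactCTGAAGCTCtga
The ends of Acox3, Eci2 and Slc27a2 also end in a codon for leucine but lay outside the pattern searched. The mitochondrial Acat1, whose end is not printed, came as close. Like Eci2 and Slc27a2 it ends in codons for lysine and leucine, and it misses the pattern by the residue before them. Hsd17b4 also had a fitting end, which is not printed.

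The thiolases Acaa1a and Acaa1b, which split the shortened chain in peroxisomes, lacked a PTS1 end and instead held the second type of peroxisomal signal (PTS2) near the start. The pattern (arginine or lysine, then leucine, valine or isoleucine, 5 residues of any kind, histidine or glutamine, and leucine or alanine, within the first 40 residues) began at codon 3 in both. It was present in 163 of the 21822 genes (0.747%). Eci2 held it too, from codon 29. The outer 2 codons on each side of the signal are in capitals.
Acaa1a (chr9:119341521-119341547, plus strand): CGGCTGcaggtagtgctgggcCACCTG
Acaa1b (chr9:119156962-119156988, minus strand): CGGCTGcaggtagtgctgggtCACCTG
The coding sequences of the genes, each of 1272 bases, were identical at 96.5% of positions, and 51.3% of the 30-base windows of either occurred in the other. Reads of footprint length could therefore be split between them by the counting, and the values of both are uncertain as separate genes. Eci2 shared 19.6% of its windows with Eci3, and the other 32 members shared none with another coding sequence.

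The tissue was that of the label. All 4 markers of the early proximal tubule were present, with a summed RNA level of 3887 to 4469 RPKM, as were the 4 of its last segment (1907 to 3987 RPKM) and the 3 of the thick ascending limb (3282 to 4548 RPKM). Both low ends of the latter ranges belonged to ZT10 replicate 2. Of the 5 fat markers, 3 were listed in RNA-seq, at a sum of 0.53 to 9.03 RPKM, and all 5 in RPF-seq, at 0.87 to 22.1 RPKM. None of the 4 adrenal markers was listed. The 3 of 4 hepatocyte markers that were listed summed to 20.3 to 45.2 RPKM in RNA-seq. In RPF-seq their sum was 39.9 to 187 RPKM, lowest in ZT10 replicate 2 and highest in ZT12 replicate 1. The 3 of 4 blood markers that were listed summed to 182 to 410 RPKM in RNA-seq and 529 to 799 RPKM in RPF-seq. The part of these other tissues in the results was not tested. The clock genes Arntl (25.0-fold in RNA, peak at 22.5 h), Npas2, Dbp (42.1-fold, peak at 10.5 h), Per2, Per3 and Nr1d1 each had a 24-h rhythm in both assays. Normalised library sizes, rounded, were 9860000 to 33580000 reads in RNA-seq and 15560000 to 35010000 reads in RPF-seq. They were larger in the light phase, with medians over ZT2 to ZT10 and over ZT14 to ZT22 of 17450000 and 12770000 reads for RNA and of 26090000 and 19600000 reads for footprints. Pools of 2 timepoints stood apart. The RPF-seq library of ZT4 replicate 2 listed 162 genes at 0, against at most 23 in any other, and the replicates differed most at ZT10, by a root mean square of 0.38 on the log2 scale over the members in RNA-seq. The libraries are bulk tissue, in which fewer cells of a type and less RNA per cell cannot be told apart.

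The members were abundant transcripts. Their mean levels lay above at least 69.9% of the 11863 genes tested in RNA-seq and 65.6% in RPF-seq. Each RNA value rested on at least 555 reads and each RPF value on at least 706 in the 33 members whose reads could be recovered from the RPKM steps. Slc27a2, a very long chain acyl-CoA synthetase and fatty acid transporter, had by far the highest level, with 3468, 4067 and 4911 RPKM in RNA-seq (lowest, median and highest of 24 pools) and 3494, 4235 and 5011 RPKM in RPF-seq. The next were mitochondrial. Acadm, the medium chain acyl-CoA dehydrogenase, had median levels of 889 RPKM in RNA-seq and 1623 RPKM in RPF-seq, and Acat1, an acetoacetyl-CoA thiolase, 894 and 1379 RPKM. Their RNA ranges overlapped nearly completely (730 to 1007 and 802 to 1068 RPKM), so that their order in RNA-seq was not resolved. The lowest RNA level was that of Acsl4, a synthetase that prefers arachidonic acid (25.8, 33.7 and 41.8 RPKM), and the lowest footprint level that of the synthetase Acsl5 (21.04, 25.9 and 29.0 RPKM).

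**Figure D1:**
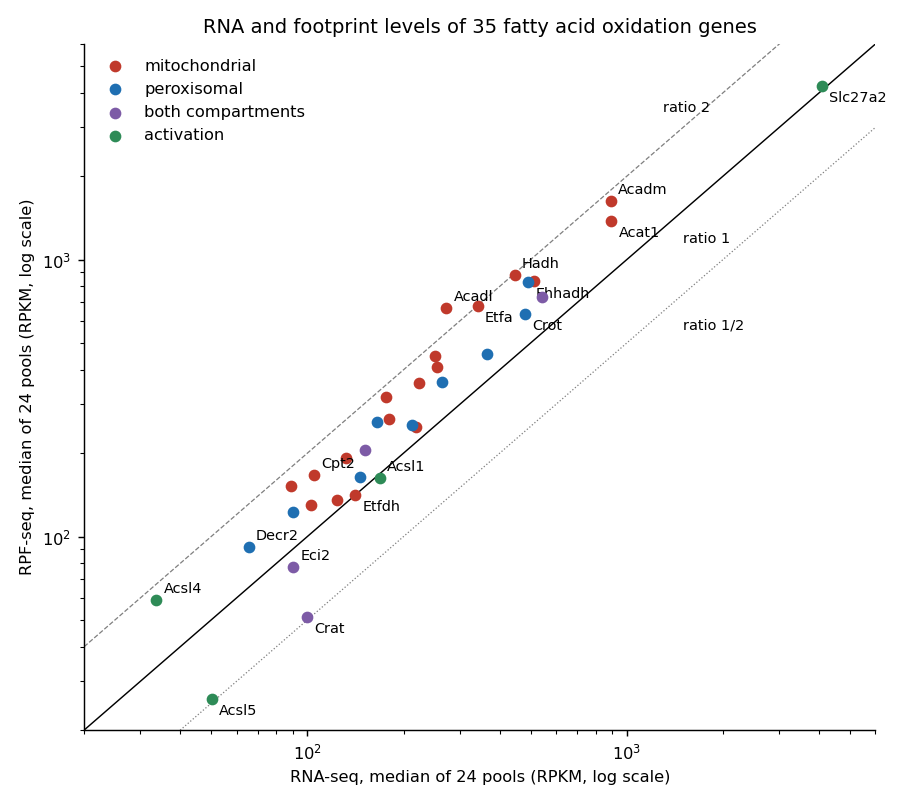
Median RNA-seq level (x axis) and median RPF-seq level (y axis) of each member over 24 pools, in RPKM on log scales and coloured by list. The solid line marks a ratio of 1, and the dashed and dotted lines ratios of 2 and 1/2. All 18 mitochondrial genes sit on or above the solid line, with Acadl highest relative to it, whereas Acsl5 and Crat sit close to the dotted line.

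Mitochondrial transcripts carried more footprints per RNA than the median gene. TE levels were tested after centring each pool on its median gene (limma's moderated test, adjusted over 11863 genes), and a gene was called when it was at least 1.5-fold from the median gene at an adjusted p under 0.05. By this rule 18 members were called higher, namely 14 of the 18 mitochondrial genes, 3 of the 9 peroxisomal genes and Acsl4, against a background of 20.6% of all genes. All 18 and all 9 lay above the median gene. The median was 1.68-fold for the mitochondrial list (1.06 to 2.51) and 1.41-fold for the peroxisomal list (1.21 to 1.74), against 1.01-fold for all genes tested. The overlap of the ranges was thus wide, and the difference between the lists was not tested. TE compares RPKM on coding sequences, and rates of ribosome movement are not seen in it.

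Acadl, the long chain acyl-CoA dehydrogenase, had the highest TE of the members. Its RPF to RNA ratio was 1.77, 2.52 and 3.24 (lowest, median and highest of 24 pools), 2.51-fold over the median gene (adjusted p = 8.6e-19). It was followed by Hadh, the short chain 3-hydroxyacyl-CoA dehydrogenase, with 1.68, 2.01 and 2.29 (2.11-fold), and Etfa, a subunit of electron transfer flavoprotein, with 1.41, 1.97 and 2.70 (2.08-fold). These 3 ranges overlapped. The 4 mitochondrial genes that were not called were Acadvl, the very long chain acyl-CoA dehydrogenase (1.17-fold over the median gene), Hsd17b10 (1.19-fold), the isomerase Eci1 (1.35-fold) and Etfdh (1.06-fold), whose product passes electrons from the flavoprotein to ubiquinone. Among peroxisomal genes Ehhadh (1.74-fold), Hsd17b4, the other multifunctional enzyme (1.65-fold), and Decr2 (1.52-fold) were called. Decr2, Acads and Hadha were close to the 1.5-fold limit and lost their calls when TE was not centred on the median gene or genes under 2 RPKM were left out, Decr2 also without replicate 2.

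The lowest TE values were found for an activating enzyme and for carnitine acetyltransferase. Acsl5 had a ratio of 0.42, 0.51 and 0.66 and was 0.54-fold the median gene (adjusted p = 3.8e-19), and Crat 0.46, 0.51 and 0.62 (0.55-fold, adjusted p = 3.7e-22). They were the only 2 members called lower, where 26.0% of all genes were. No pool of either reached the lowest pool of Acsl4, the low-abundance synthetase (1.501, 1.76 and 2.42, 1.87-fold over the median gene, adjusted p = 2.3e-19). Acsl1, the main synthetase of oxidative tissues, had a ratio of 0.90, 0.98 and 1.10. The 4 activating genes thus included members at both ends of the range. For Crat and Scp2 no annotated coding length gave whole reads, so the length behind their RPKM is not known.

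Time of day was tested by fitting a 24-h cosine and sine to log2(RPKM + 0.1) over the 24 libraries of an assay (limma's moderated F test, adjusted over the 11863 genes). The fitted peak-to-trough fold is never below 1. At the RNA level 15 of the 35 members had a 24-h component at an adjusted p under 0.05, where 48.6% of all genes did. The median fold of the members was 1.15, and that of all genes 1.21. No member reached the 1.5-fold limit that 10.2% of all genes passed, the highest being 1.44-fold. The peaks of the 15 were spread over the day, with 3 in ZT0 to ZT6 and 4 in each of the later spans of 6 h.

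The largest RNA changes belonged to Acsl1 and Acadl. Acsl1 had RNA levels of 208 and 218 RPKM at ZT22 and of 120 and 127 RPKM at ZT14, which were the highest and the lowest timepoint. The fit gave 1.44-fold (log2 0.52 ± 0.08, SE, adjusted p = 3.9e-05) with a peak at 22.8 ± 0.6 h. Acadl RNA stood at 360 and 359 RPKM at ZT0 and at 199 and 224 RPKM at ZT14, a fit of 1.43-fold (log2 0.52 ± 0.09, adjusted p = 0.0003) with a peak at 4.2 ± 0.7 h. Etfa had a similar course, with 411 and 441 RPKM at ZT0, 254 and 296 RPKM at ZT14 and 1.33-fold (adjusted p = 0.0026).

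The other called changes in RNA were of 1.16- to 1.35-fold. In mitochondria they were those of Cpt2, which releases acyl groups from carnitine (1.23-fold, peak at 12.8 h), Hadhb, the thiolase subunit of the trifunctional protein (1.22-fold, 18.3 h), Eci1 (1.18-fold, 10.4 h), Acat1 (1.17-fold, 19.8 h), Acads, the short chain acyl-CoA dehydrogenase (1.16-fold, 6.9 h), and Etfb (1.16-fold, 7.4 h). Of the peroxisomal list Decr2 (1.35-fold, 12.9 h), the acyl-CoA oxidase Acox3 (1.3-fold, 12.3 h) and Acaa1a (1.22-fold, 9.6 h) were called. The isomerase Eci2 (1.31-fold, 14.1 h), Acsl5 (1.29-fold, 0.6 h) and Acsl4 (1.24-fold, 20.4 h) made up the rest. Hadhb and Acaa1a were at adjusted p = 0.049 each and were lost without the ZT4 replicate 2 pool, at 0.055 and 0.056. Of the 14 alternatives run, the RNA call was kept in 8 for Hadhb, 8 for Acads and 9 for Acaa1a. Acads was lost with median-gene centring (adjusted p = 0.055), the depth covariate (0.125) or a 12-h harmonic (0.106), and Acat1 with quantile normalisation (1.072-fold, adjusted p = 0.265) or the depth covariate (0.06). With replicate 2 alone 3 members kept their RNA call, Acadl, Acsl1 and Decr2. The 20 genes not called had fitted folds of 1.03 to 1.21, and they included Acadm (1.04-fold), Hadha (1.03-fold), Ehhadh (1.03-fold) and Slc27a2 (1.07-fold).

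**Figure D2:**
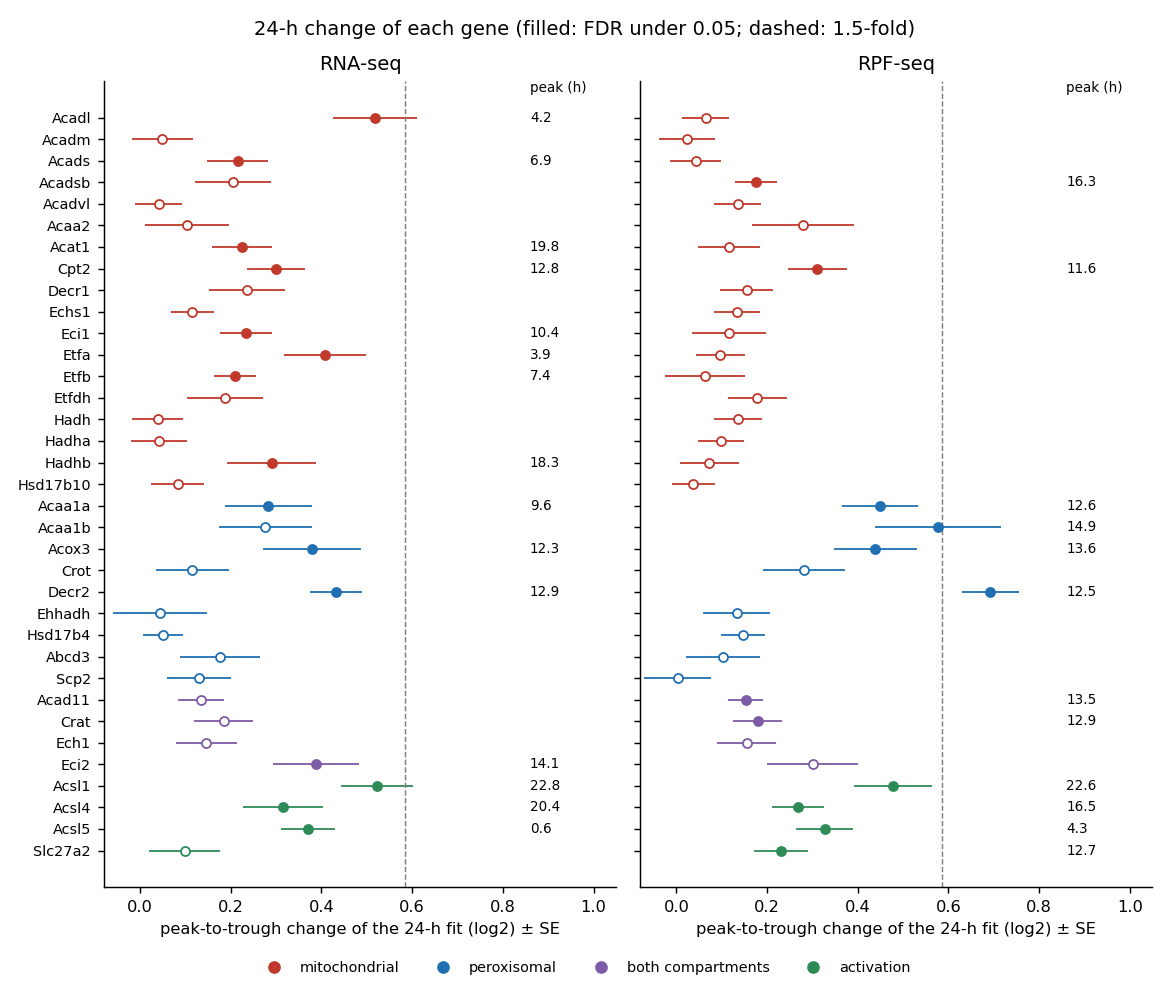
Fitted 24-h peak-to-trough change (log2) with its SE for each member in RNA-seq (left) and RPF-seq (right), coloured by list, with the peak time in hours for genes with a 24-h component (filled points). The dashed line marks 1.5-fold, which in RPF-seq Decr2 passed at 1.62-fold and Acaa1b missed at 1.49-fold, while most mitochondrial genes sit near the left edge.

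In footprints 12 of the 35 members had a 24-h component, beside 30.9% of all genes. Of the 12, 9 peaked between ZT12 and ZT18, in the first part of the dark phase (75%), compared with 909 of the 3663 genes with a 24-h component overall (24.8%). This difference was not tested. The share depends on where the window begins, since Decr2, Acaa1a, Slc27a2 and Crat peaked at 12.5 to 12.9 h and Cpt2, outside it, at 11.6 h. Acaa1a and Acaa1b, whose reads can be interchanged, are both among the 9. Some markers of tubule cells moved in the same window. Of 19 such markers 10 had a 24-h component in footprints, and 9 of these peaked between ZT12 and ZT18. Among them were Slc5a12 of the proximal tubule (1.45-fold, peak at 14.5 h), Umod of the thick ascending limb (1.42-fold, 16.1 h) and Aqp2 of the collecting duct (1.67-fold, 15.7 h). Other markers of the same cells were not called, such as Lrp2 (1.11-fold, adjusted p = 0.053) and Slc34a1 (1.10-fold, 0.36) of the proximal tubule and Fxyd4 of the collecting duct (1.22-fold, 0.12). The hepatocyte marker Alb also had a peak there (2.14-fold, 15.6 h). The part of cell makeup in the members' courses was not tested. By list, 2 of 18 mitochondrial genes, 4 of 9 peroxisomal genes, 2 of 4 genes of both compartments and 4 of 4 activation genes were called. The median fold was 1.08 for the mitochondrial list, 1.22 for the peroxisomal list and 1.18 for all genes tested.

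Decr2, the peroxisomal reductase for unsaturated chains, was the only member with a footprint rhythm of at least 1.5-fold, which 7.58% of all genes had. Its RPF values were 131 and 117 RPKM at ZT12, and 75.3 and 62.8 RPKM at ZT0. Values were higher at each timepoint from ZT4, with 85.0 and 73.2 RPKM, to ZT10, with 116 and 117 RPKM, in both replicates, and timepoint means declined through the dark phase to 77.0 and 85.0 RPKM at ZT22. The fit was 1.62-fold (log2 0.69 ± 0.06, SE, adjusted p = 4.5e-08) with a peak at 12.5 ± 0.4 h. Its 24-h component was called under all 14 alternatives run, each replicate alone included. The mitochondrial counterpart Decr1 had 414 and 392.2 RPKM at ZT12 and 307 and 343 RPKM at ZT2, with a fit of 1.11-fold that was not called (adjusted p = 0.11).

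Further peroxisomal footprints with a peak early in the dark phase were those of Acaa1b, Acaa1a and Acox3. Acaa1b had 329 and 379 RPKM at ZT12 and 236 and 124 RPKM at ZT4, with a fit of 1.49-fold (log2 0.58 ± 0.14, adjusted p = 0.0082) and a peak at 14.9 ± 0.9 h. Its lowest value came from the ZT4 replicate 2 library, and without that pool the fit was 1.36-fold (adjusted p = 0.012). Acaa1a had 144 and 149 RPKM at ZT16 and 108 and 86.2 RPKM at ZT4, with 1.37-fold (adjusted p = 0.00093) and a peak at 12.6 h. As their reads can be interchanged, the courses of these thiolases are not independent. Acox3 had 216 and 197 RPKM at ZT14 and 151 and 126 RPKM at ZT22, with 1.36-fold (adjusted p = 0.0026) and a peak at 13.6 h. Of the other peroxisomal genes, the carnitine octanoyltransferase Crot (1.22-fold, adjusted p = 0.053) and Hsd17b4 (1.11-fold, adjusted p = 0.059) missed the threshold narrowly. Ehhadh (1.10-fold), the transporter Abcd3 (1.07-fold) and Scp2 (1.00-fold), a thiolase and lipid carrier, had adjusted p values of 0.33 to 1.00.

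**Figure D3:**
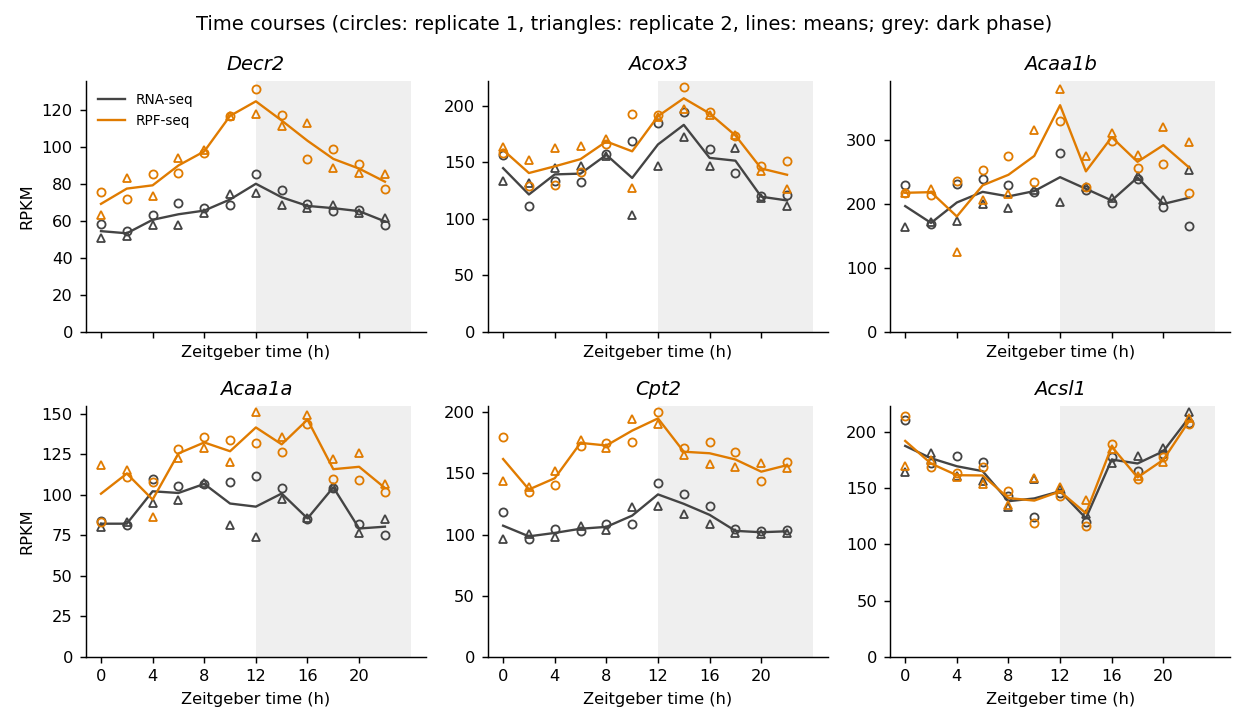
RPKM of 6 members in each RNA-seq (grey) and RPF-seq (orange) library against Zeitgeber time in hours, with circles for replicate 1, triangles for replicate 2, lines through the timepoint means and the dark phase shaded. Decr2 footprints rise to 131 and 117 RPKM at ZT12 above a flatter RNA course, and the RNA and footprint courses of Acsl1 run together with their low point at ZT14.

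Cpt2 and Acadsb were the only mitochondrial genes called in footprints. Cpt2 had 200 and 190 RPKM at ZT12 and 135 and 139 RPKM at ZT2, a fit of 1.24-fold (adjusted p = 0.0027) with a peak at 11.6 ± 0.8 h. Acadsb, a dehydrogenase of short branched chains, had 1.13-fold with a peak at 16.3 h (adjusted p = 0.015), a call that was lost with quantile normalisation (0.063), the depth covariate (0.058), a 12-h harmonic (0.057) or timepoints as a factor (0.241). The remaining 16 had folds of 1.016 to 1.21, and Acaa2, the mitochondrial thiolase, had the highest of these (1.21-fold, adjusted p = 0.14), with a gap between its ZT10 pools of 448 and 588 RPKM. All 4 activating enzymes were called. Acsl1 footprints were 207 and 213 RPKM at ZT22 and 116 and 139 RPKM at ZT14 (1.39-fold, adjusted p = 0.00065, peak at 22.6 h). Slc27a2 was changed 1.17-fold with a peak at 12.7 h, which was not called with quantile normalisation (1.088-fold, adjusted p = 0.201). Acsl4 was changed 1.204-fold with a peak at 16.5 h, and Acsl5 1.254-fold with a peak at 4.3 h. In the genes of both compartments, Acad11 (1.11-fold, 13.5 h) and Crat (1.13-fold, 12.9 h) were called, the latter not without either of the pools that stood apart (adjusted p = 0.057 without ZT4 replicate 2 and 0.056 without ZT10 replicate 2). Crat kept its footprint call in 8 of the 14 alternatives run.

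The RNA and footprint peaks of the 7 members called in both assays could be compared. The footprint peak of Acsl1 differed from its RNA peak by -0.2 ± 0.9 h (SE), that of Decr2 by -0.4 ± 0.6 h, that of Cpt2 by -1.1 ± 1.1 h and that of Acox3 by 1.3 ± 1.3 h, none of them clearly larger than its SE. Acsl4 footprints peaked 3.9 ± 1.3 h before their RNA, and Acsl5 footprints 3.7 ± 1.0 h and Acaa1a footprints 3.1 ± 1.5 h after it. These SE treat the errors of the assays as independent.

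Whether footprints followed RNA over the day was tested on TE, as the interaction of assay and time. A 24-h component of TE was found for 8 of 35 members (17.1% of all genes), and no member reached 1.5-fold (3.74% of all genes), the highest being Acadl with 1.49-fold. These calls were less firm than those within an assay. With relative library depth as a covariate 1 of the 8, Crot, kept its call, while 10 members were at an unadjusted p under 0.05, as many as without it, and the highest fold was 1.402. With either replicate alone none of the 8 was called (3 and 9 members at an unadjusted p under 0.05 with limma, in place of 10). Since library depth was higher in the light phase, its part in the TE courses cannot be told apart from that of time.

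Acadl showed the largest difference between assays. Its RNA fell between ZT0 and ZT14 as described, while its footprints stayed between 601 and 745 RPKM in all 24 pools (1.046-fold, adjusted p = 0.58). TE was 1.77 and 1.97 at ZT0 and 3.24 and 2.95 at ZT14, and no pool from ZT12 to ZT22 fell below 2.48. All pools from ZT0 to ZT8 were at 2.24 or lower, and those of ZT10 were apart, at 1.84 and 2.82. The fit gave a peak at 16.1 ± 0.7 h (log2 0.58 ± 0.10, SE, adjusted p = 0.0031, and 0.051 with the depth covariate). Etfa had the same form, with footprints of 582 to 784 RPKM (1.07-fold, adjusted p = 0.34) and a TE of 1.41 and 1.57 at ZT2 and of 2.70 and 2.36 at ZT14 (1.35-fold, adjusted p = 0.016, and 0.12 with the depth covariate).

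Other members differed in the opposite way or by less. Crot, which makes carnitine esters of shortened chains for export from peroxisomes, had a TE of 1.62 and 1.503 at ZT8 and of 0.96 and 1.11 at ZT20 (1.3-fold, peak at 9.0 ± 0.7 h, adjusted p = 0.0043, and 0.040 with the depth covariate). Acat1 TE was 1.81 and 1.65 at ZT8 and 1.26 and 1.26 at ZT20 (1.24-fold, peak at 6.6 h, adjusted p = 0.0081). Its RNA peaked at 19.8 h and its footprints were not called. TE of Acsl5 (1.252-fold, 8.9 h), Etfdh (1.21-fold, 6.7 h), Acsl4 (1.22-fold, 11.9 h) and Decr2 (1.204-fold, 11.8 h) made up the 8, at adjusted p values of 0.025 to 0.047. That of Acsl4 was lost without the ZT4 replicate 2 pool (adjusted p = 0.056) and was kept in 8 of the 14 alternatives run. Decr2, Acsl4 and Acsl5 had a 24-h component in RNA, in footprints and in TE. The peaks of Decr2 lay close together, at 12.9, 12.5 and 11.8 h.

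**Figure D4:**
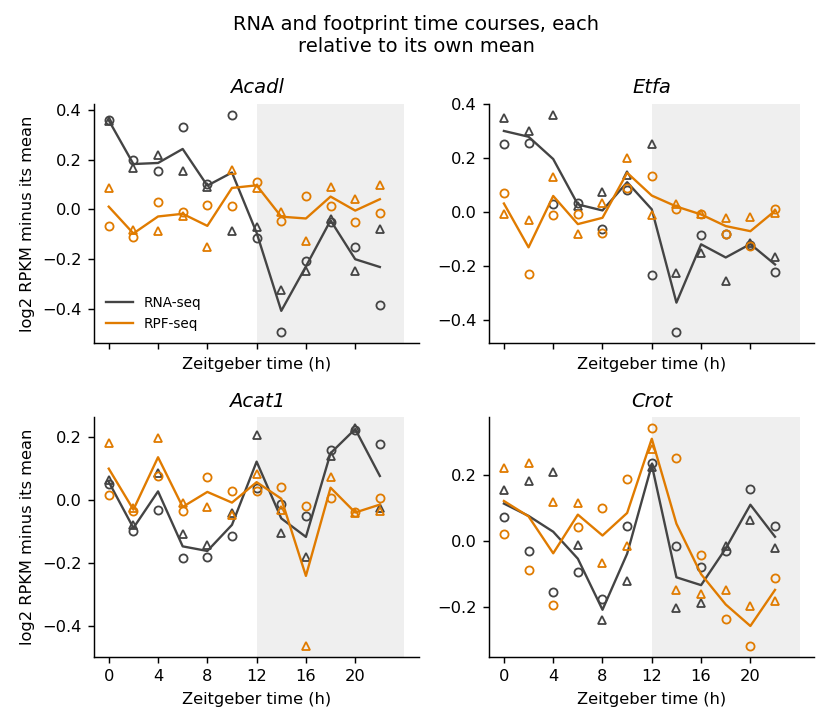
RNA-seq (grey) and RPF-seq (orange) courses of 4 members as log2 RPKM minus the mean over 24 pools, against Zeitgeber time in hours, with circles for replicate 1, triangles for replicate 2, lines through timepoint means and the dark phase shaded. Acadl and Etfa RNA falls to its lowest mean at ZT14 while the footprints stay near 0, and Acat1 and Crot RNA at ZT20 lies above the footprints.

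The mitochondrial list as a whole was set against the peroxisomal list in each pool, as the difference of their mean log2(RPKM + 0.1). In RNA-seq the mitochondrial mean was higher by 0.02, 0.18 and 0.28 (lowest, median and highest of 24 pools), and in RPF-seq by 0.19, 0.39 and 0.56. Footprints thus gave a larger difference in each pool, by 0.05 to 0.34. The RPF difference was smallest at ZT12, with 0.22 and 0.19, and largest at ZT4, with 0.49 and 0.56, the latter in the pool whose RPF-seq library listed many genes at 0. The next largest was at ZT22, with 0.44 and 0.48. In RNA-seq the values at ZT14 were 0.04 and 0.08 and those at ZT2 were 0.27 and 0.23, and the pools of ZT10 were far apart with 0.07 and 0.28. The RNA value depended on how the list was summarised, since medians over members in place of means gave 0.036. As Acaa1a and Acaa1b are 2 of the 9 peroxisomal genes, their shared reads enter the difference.

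**Figure D5:**
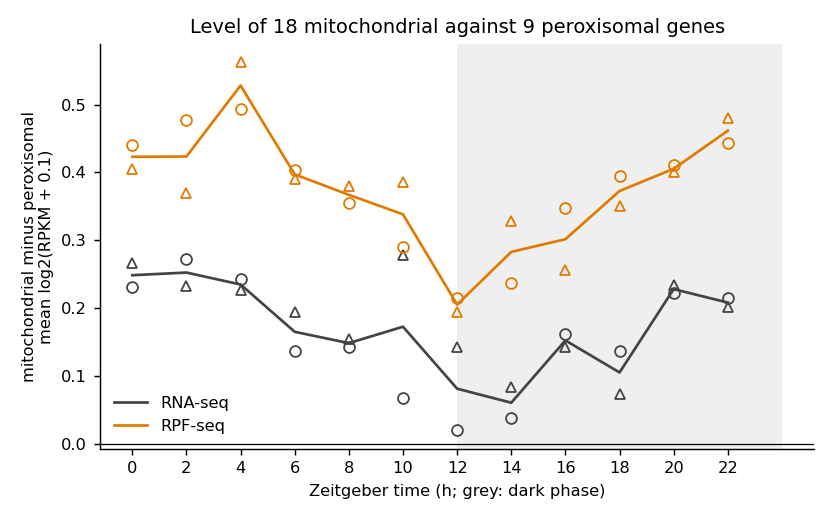
Mean log2(RPKM + 0.1) of the 18 mitochondrial genes minus that of the 9 peroxisomal genes in each pool against Zeitgeber time in hours, for RNA-seq (grey) and RPF-seq (orange), with circles for replicate 1, triangles for replicate 2, lines through timepoint means and the dark phase shaded. The RPF difference falls to 0.22 and 0.19 at ZT12, and its line lies above that of RNA at every timepoint.

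Subunits that work in 1 complex were compared by their ratio. Hadha and Hadhb form the trifunctional protein and lie head to head on chromosome 5, with RefSeq start sites at 30154980 (minus strand) and 30155253 (plus strand) of GRCm38.p6, 273 bases apart. The ratio of Hadha to Hadhb was 0.66, 0.74 and 0.94 by RNA and 0.54, 0.61 and 0.74 by footprints (lowest, median and highest of 24 pools), and in 0 of 24 pools was it higher in footprints than in RNA. Etfa and Etfb form electron transfer flavoprotein in equal numbers. Their ratio was 0.47, 0.67 and 0.84 by RNA and 0.58, 0.81 and 1.11 by footprints, and it was higher in footprints in 21 of 24 pools. The footprint ratio was thus nearer to 1 than the RNA ratio for the flavoprotein and farther from it for the trifunctional protein, by the medians.

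Other genes of the pathway were counted in the same way. Of all genes tested, 48.6% had a 24-h component in RNA and 30.9% in footprints, and 10.2% and 7.58% one of at least 1.5-fold. Of 44 further genes of fatty acid uptake, activation, oxidation and ketone body formation, 38 were tested. By RNA 17 of them had a 24-h component, by footprints 16, and the change was at least 1.5-fold for 2 and 4. The largest folds among these were those of Fabp1, a fatty acid binding protein, the peroxisomal coenzyme A hydrolase Nudt19 and Fabp3. Fabp1 had 2.36-fold in RPF-seq (peak at 14.7 h, adjusted p = 0.0089) and was not called in RNA-seq (1.82-fold, 1.3 h, adjusted p = 0.14). The hepatocyte marker Alb had 2.14-fold in RPF-seq (15.6 h) and 1.83-fold in RNA-seq (23.8 h). Apoa2 and Serpina1a, the other hepatocyte markers listed, were not called in either assay. The part of hepatocyte RNA in the Fabp1 course was not tested. Nudt19 had 1.95-fold in RPF-seq (15.5 h) and 1.83-fold in RNA-seq, and Fabp3 1.73-fold in RPF-seq (12.5 h). Of 14 peroxisome biogenesis genes tested, 10 were called by RNA and 6 by footprints, none with at least 1.5-fold. Among 13 regulators, 8 and 7 had a 24-h component, and the largest folds were those of Nr1d1 (21.7-fold in RNA-seq), the fatty acid receptor Ppard (6.58-fold in RNA-seq, peak at 0.7 h, and 8.85-fold in RPF-seq) and Nr1d2 (4.84-fold in RNA-seq). Ppara, the receptor known to drive fatty acid oxidation genes, was picked out after its values were seen, with 1.41-fold in RNA-seq (peak at 12.8 h, adjusted p = 6.9e-06) and 1.54-fold in RPF-seq (12.8 h).

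Promoter windows from 250 bases before to 50 bases after the start were read from RefSeq (GRCm38.p6) for 30 of the 35 members. Missing entries were Acaa2, Acat1, Crat, Decr1 and Hsd17b4. Both strands were searched for the PPAR response element AGGTCANAGGTCA, the E-box CACGTG, the D-box TTATGNAA and the ROR element AANTAGGTCA, whose last 6 bases are also the repeated unit of the first. None of the 30 windows held any of them, nor the PPAR response element with 1 mismatch. Among all 32851 promoter windows, the shares that held them were 0.0396%, 7.15%, 3.38% and 0.219%, and 0.554% with 1 mismatch. With shares this low, few or no matches would be found in 30 windows of any genes. The search therefore cannot show whether the members lack such elements, and sequence outside the windows was not searched.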

How the data were processed

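Each of the 48 kidney libraries was deposited as a table of RPKM values per gene. To make them, the authors trimmed adapters (Cutadapt), kept reads of the expected sizes, mapped them in turn to rRNA, tRNA, cDNA (Bowtie2 2.2.1) and the GRCm38 genome (TopHat2 2.0.11, Cufflinks 2.2.1), counted reads on coding sequences, and normalised by upper quantiles in edgeR, so changes in total mRNA per cell are not visible. Depth was recovered here from RPKM steps and GENCODE coding lengths (98.48% and 98.3% of low values whole within 0.01 reads). Genes with a median of at least 0.5 RPKM in both assays were tested (11863) on log2(RPKM + 0.1), which understates changes of low genes, with limma 3.58.1 in R 4.3.3 (lmFit, eBayes with trend) and Benjamini-Hochberg adjustment. Every other value was computed in Python 3.11.15. The test was tested on simulated rhythms and shifts. Replicates are separate pools of mice. On average, same-numbered replicates did not deviate together (mean r 0.029 in RNA-seq and 0.020 in RPF-seq over 66 pairs of timepoints). Single pairs ranged from -0.18 to 0.48 in RNA-seq and from -0.20 to 0.19 in RPF-seq. All 35 members are named, and of other lists at most 6 genes by largest fold. Members and lists were chosen with earlier results of these data known. Alternatives covered the pseudocount, RPKM minimum, normalisation, replicates, depth, model and 2 single pools.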

Additional observations from a re-analysis of the deposited data

Results flagged for a closer look

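For 8 members the footprint and RNA courses differed over the day by the test of the interaction of assay and time. By fitted TE fold these were Acadl (1.49), Etfa (1.35), Crot (1.3), Acsl5 (1.252), Acat1 (1.24), Acsl4 (1.22), Etfdh (1.21) and Decr2 (1.2). Adjusted p values (limma, over 11863 genes) ran from 0.0031 for Acadl to 0.047 for Acsl4.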

How the results depend on the processing

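A pseudocount of 1 or 0.01, genes kept from 2 RPKM or without any minimum, quantile normalisation, centring on the median gene, and leaving out the ZT4 replicate 2 or ZT10 replicate 2 pool (both chosen after seeing the data) kept the counts of members with a 24-h component within 1.5 times of 15 (RNA), 12 (RPF) and 8 (TE). Each replicate alone gave 3 to 16, 1 to 9 and 0 to 0 members, with 12 libraries in place of 24, and 12 timepoints as a factor gave 9, 6 and 0 (10 members at an unadjusted p under 0.05 in TE with limma). With a 12-h harmonic 5 members were called in TE, and with relative library depth as a covariate 1, with 10 at an unadjusted p under 0.05, as many as without it, and a highest fold of 1.402. Rhythms of at least 1.5-fold numbered 0 in RNA-seq, 0 to 1 with each replicate alone and 3 with timepoints as a factor. In RPF-seq they numbered 1, but 2 after centring on the median gene, with the depth covariate or with a 12-h harmonic, 1 to 3 with each replicate alone and 3 with timepoints as a factor. The mitochondrial minus peroxisomal difference of 0.18 (RNA) and 0.39 (RPF) became 0.27 and 0.64 with genes of both compartments counted as peroxisomal, and 0.036 in RNA with medians over members. With a replicate block, 16, 13 and 8 members had a 24-h component, and 20 had a called TE level, the same number as without it. No called member's fitted peak moved by more than 6 h, and no called TE level changed sign, in the alternatives run.

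Over all genes, the 24-h component count was 5761 in RNA-seq (1200 without replicate 1, 3674 with timepoints as a factor), 3663 in RPF-seq (460 and 2074 without replicate 1 and 2, 1520 as a factor) and 2028 in TE (0 and 2, 101 as a factor, 426 with the depth covariate). Counts of at least 1.5-fold were 1210 in RNA-seq (781 with a pseudocount of 1, 722 without replicate 1, 2291 as a factor), 899 in RPF-seq (590 and 370 for the first 2 of these) and 444 in TE (0 and 2 without replicate 1 and 2, 98 as a factor, 161 with the depth covariate). Causes were not tested.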

Other observations

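The 35 members together made up 1.41%, 1.58% and 1.68% of the summed RNA RPKM of a library (lowest, median and highest of 24) and 1.77%, 1.88% and 2.11% of the summed footprint RPKM. Slc27a2 alone gave a median of 0.49% by RNA and 0.45% by footprints. The 18 mitochondrial genes gave 0.65% and 0.96% and the 9 peroxisomal genes 0.28% and 0.34%, by the medians. These shares weight genes by reads per length, not by reads.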
